A study of Mus musculus with 6 samples.

Results

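A set of 10 genes that carry glucose into the cell, break it down to pyruvate and release lactate was followed through DSS colitis in the mouse distal colon. They are Slc2a1, Hk2, Pfkfb3, Pfkp, Aldoa, Pgk1, Eno1, Pkm, Ldha and Slc16a3, and they were found by matching the deposited Ensembl identifiers to gene symbols in GENCODE mouse release M21. The 10 genes took 11 of the 20533 deposited rows, because GENCODE gives the symbol Aldoa to another identifier, ENSMUSG00000114515.1, which had 1 to 8 reads per library and is not counted among the 10. The mice were C57BL/6 wild-type males, 7 weeks old, and RNA was taken from the distal colon. The 3 groups had 2 libraries each and were sampled after 7 days of plain water, of 2% dextran sulphate sodium (DSS), or of 2% DSS together with montmorillonite powder (the DSS plus montmorillonite group, or montmorillonite group). DSS damages the lining of the large bowel when drunk and is a standard way to bring on colitis in mice, and montmorillonite is a clay mineral used as an oral adsorbent. The dose of montmorillonite, and whether each library is from a mouse of its own, are not given in the sources used here, so p-values measure only the spread between these libraries, which may be technical.

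Glycolysis converts glucose to pyruvate in the cytosol. Slc2a1 (GLUT1) admits glucose, hexokinase Hk2 traps it as glucose 6-phosphate, and phosphofructokinase, of which Pfkp is the platelet-type subunit, commits it to the pathway. Pfkfb3 makes fructose 2,6-bisphosphate, the strongest activator of phosphofructokinase, and is known as an inducible, highly kinase-active member of its family. Aldolase (Aldoa), phosphoglycerate kinase (Pgk1), enolase (Eno1) and pyruvate kinase (Pkm) carry the sugar on to pyruvate. Lactate dehydrogenase A (Ldha) reduces pyruvate to lactate, and the monocarboxylate transporter MCT4 (Slc16a3) exports lactate from glycolytic cells. In the healthy colon, absorptive epithelial cells burn butyrate in their mitochondria, while activated myeloid cells are known to rely on glycolysis. Many of these genes are textbook targets of the hypoxia-inducible factor HIF-1, which binds a core of ACGTG or GCGTG.

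The promoters of 4 of the genes are shown because they set the genes that rose in DSS, Pfkfb3 and Slc16a3, beside genes of the same pathway that did not pass the test, Pgk1 and Ldha. Each is the window of 250 bases before a start site in RefSeq on GRCm38.p6, read 5′ to 3′ on the strand of the gene. Capitals mark every ACGTG or GCGTG, on either strand, and a palindromic CACGTG counts as 2 matches because it holds ACGTG on both strands.
Pfkfb3, inner start site, chr2:11502091-11502340, minus strand: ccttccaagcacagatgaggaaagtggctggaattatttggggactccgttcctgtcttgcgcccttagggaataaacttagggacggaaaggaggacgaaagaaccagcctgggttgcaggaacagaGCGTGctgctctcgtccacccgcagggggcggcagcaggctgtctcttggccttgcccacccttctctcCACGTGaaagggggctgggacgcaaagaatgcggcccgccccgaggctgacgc
Slc16a3, chr11:120948817-120949066, plus strand: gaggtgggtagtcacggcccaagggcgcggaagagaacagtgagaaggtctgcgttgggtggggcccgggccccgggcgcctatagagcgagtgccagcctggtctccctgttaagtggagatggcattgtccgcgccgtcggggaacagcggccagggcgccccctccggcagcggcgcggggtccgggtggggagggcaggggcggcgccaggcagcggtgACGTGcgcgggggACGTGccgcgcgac
Pgk1, chrX:106186850-106187099, plus strand: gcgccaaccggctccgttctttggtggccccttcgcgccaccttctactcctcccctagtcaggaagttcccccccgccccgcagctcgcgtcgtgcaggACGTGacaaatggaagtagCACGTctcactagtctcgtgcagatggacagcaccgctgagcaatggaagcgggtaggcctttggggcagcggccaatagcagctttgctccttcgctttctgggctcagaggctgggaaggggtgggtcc
Ldha, outer start site, chr7:46845554-46845803, plus strand: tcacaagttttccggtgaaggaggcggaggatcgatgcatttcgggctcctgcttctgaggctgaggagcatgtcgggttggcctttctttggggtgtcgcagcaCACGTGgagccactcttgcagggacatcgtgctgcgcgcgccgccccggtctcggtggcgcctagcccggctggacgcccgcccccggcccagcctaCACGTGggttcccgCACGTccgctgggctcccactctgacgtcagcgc
The Pfkfb3, Slc16a3 and Ldha windows lie inside the annotated gene bodies, with 11 bases of the Pfkfb3 window and 14 of the Slc16a3 window in an annotated exon of the gene. There were 3 matches in the Pfkfb3 window, 2 in Slc16a3, 2 in Pgk1 and 5 in Ldha. Pfkfb3 and Ldha each had another start site, whose window is not printed and held 1 match. RefSeq gave 17 such windows for the 10 genes, of which 15 held a match, and each of the 10 genes had a window with a match. Some windows of the same gene overlap, as for Aldoa and Eno1. Over all 27025 genes with such windows, 41.5% had a window with a match. Of all 32851 RefSeq promoter windows of this length, 38.6% held a match. Among the 6291 windows with a GC content of 60% to 70% the share was 62.5%, and the median GC content was 66.4% in the windows of the 10 genes and 52.4% over all windows. A match describes letters in the sequence and is not a measured binding site.

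Each deposited value is a read count divided by 1 size factor per library, called the normalised read count here. The 6 libraries held 3741494 to 21481594 reads, with the deepest in DSS, and a single read was worth 0.335 to 2.27 units. All 10 genes had at least 67 reads in every library. Markers of epithelium and of smooth muscle, both parts of the colon wall, were present in all 6 libraries with no marker at 0. The libraries of a group did not always resemble each other. Replicate 1 of DSS plus montmorillonite had a summed level of 10 neutrophil markers of 131, against 35.5 and 50.03 in water, while replicate 2 had 8305, against 3992 and 8945 in DSS. Replicate 2 of DSS and replicate 2 of DSS plus montmorillonite also had summed levels of 10 markers of stratified squamous epithelium of 41002 and 7904, against 52.8 to 487 in the other 4 libraries. Skeletal muscle markers summed to 3280 in DSS replicate 2 and 4099 in DSS plus montmorillonite replicate 1, against 121 to 677 in the other 4. Of DSS against water, the log2 fold changes without replicate 2 of DSS are given for Slc2a1, Hk2, Pfkfb3 and Slc16a3, and for the other called pathway genes together.

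In water, the 10 genes spanned a wide range of levels. On the scale of normalised read count per kilobase of annotated exon, the mean of the water libraries was 3765 for Aldoa and 3698 for Ldha, whose libraries overlapped. Then came Pkm at 2632, Pgk1 at 2136, Eno1 at 1172, Slc2a1 at 423, Hk2 at 301 and Pfkp at 160. The lowest levels per kilobase were those of Slc16a3 at 35.0 and Pfkfb3 at 21.3. Below Ldha, no gene's water libraries overlapped those of its neighbour in this order. In DSS, Pfkfb3 reached 95.2 and 168 per kilobase and so overlapped Pfkp, at 151 and 125, while Slc16a3 reached 79.4 and 145. Exon lengths are those of all annotated exons of a gene, so a gene with unused exons has too low a level on this scale.

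After 7 days of DSS, the genes that rose stood at 2 points of the pathway. Pfkfb3, the activator of phosphofructokinase, and Slc16a3, the lactate exporter, rose 5.91-fold and 3.06-fold over water, and the other 8 genes did not pass the test. The test was limma on log2(normalised read count + 1) over the 4 libraries of the comparison, with Benjamini-Hochberg adjustment over 20307 genes and a threshold of 0.05, and folds are on that log scale. It called 2 of the 10 genes higher and 0 lower, where over all genes tested 7.9% were called higher, 7.18% lower and 15.1% in either direction. The median log2 fold change was -0.12 over the 10 genes and 0.10 over all genes tested. Scaling to library size alone raised both medians, to 0.12 and 0.33, and moved the split of all called genes from 1605 higher and 1459 lower to 2165 higher and 876 lower. Both calls were lost when all 6 libraries shared 1 estimate of spread, a fit in which limma called 0 genes at all with 4662 at an unadjusted p below 0.05, and they were also lost when any 1 of the 4 libraries was left out. A fit without a DSS library takes its spread from the water libraries alone and called 0 of 20307 genes, so those losses say nothing about these 2 genes in particular.

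**Figure D1:**
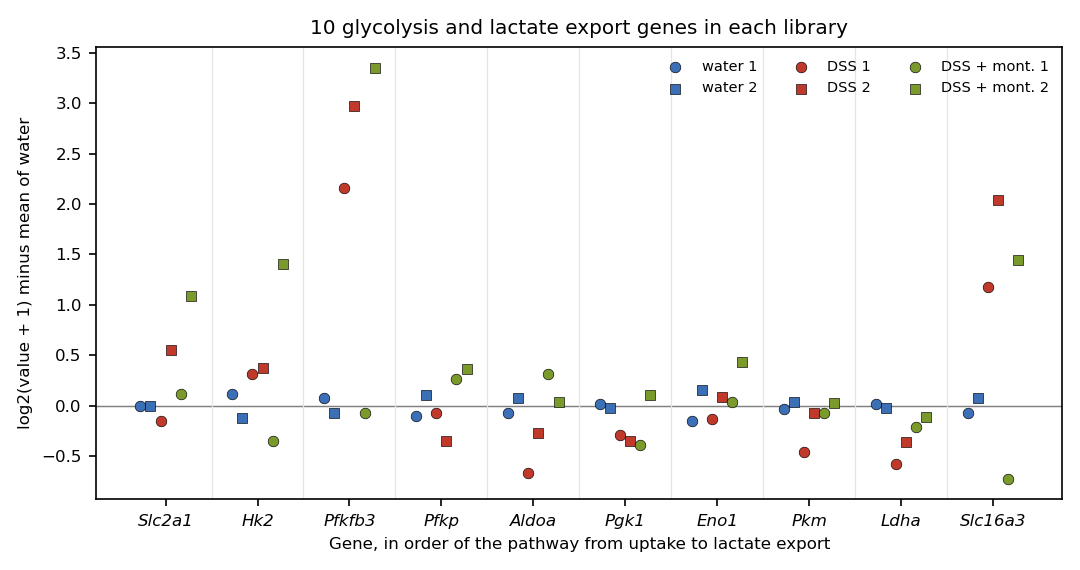
Level of each of the 10 genes in the 6 libraries, as log2(normalised read count + 1) minus the mean of the water libraries (vertical axis, log2 units), with genes in pathway order; circles are replicate 1 and squares replicate 2. Pfkfb3 and Slc16a3 lie above water in both DSS libraries and in replicate 2 of DSS plus montmorillonite, while replicate 1 of that group lies at or below water for both genes.

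Pfkfb3 (ENSMUSG00000026773.19, chromosome 2, 11471433 to 11554077, minus strand, GRCm38) had normalised read counts of 169.9 and 152 in water against 719.6 and 1267 in DSS. The corresponding DSS plus montmorillonite values were 152 and 1653. The DSS libraries did not overlap those of water, and the group given montmorillonite had 1 library at the water level and 1 above both DSS libraries. Between DSS and water the log2 fold change was 2.56 ± 0.30 (SE), a 5.91-fold rise with a 95% confidence interval of 3.56 to 9.79 (limma, adjusted p = 0.00861). Without either DSS library the log2 fold change was 2.97 or 2.15, the lower value coming from the fit without replicate 2, the library with high squamous and muscle markers. In the 4 fits that left out a library the adjusted p for Pfkfb3 was 0.0557 to 0.0810, and in the fit of all 6 libraries it was 0.198.

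Slc16a3 (ENSMUSG00000025161.16, chromosome 11, 120948480 to 120960868, plus strand) encodes the exporter at the end of the pathway and had normalised read counts of 177 and 196 in water. The DSS libraries stood at 422 and 769, and the DSS plus montmorillonite libraries at 112 and 507. Again the DSS libraries lay above water without overlap, and the group given montmorillonite had 1 library below both water libraries and 1 between the DSS libraries. The log2 fold change between DSS and water was 1.61 ± 0.31 (SE), or 3.06-fold with a 95% confidence interval of 1.80 to 5.20 (limma, adjusted p = 0.0258). Leaving out DSS replicate 1 gave 2.04 and leaving out DSS replicate 2 gave 1.18 on the log2 scale. The adjusted p for Slc16a3 was 0.0585 to 0.130 with a library left out and 0.222 in the fit of all 6 libraries.

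Neutrophil markers, like those of several other cell types, were high in the same libraries as these 2 genes. Endothelial markers, for example, summed to 966 and 1123 on water, 3752 and 7413 on DSS, and in the montmorillonite group 1040 and 4459. All 10 neutrophil markers rose in DSS, with a median log2 fold change of 7.01. Of these, S100a8, S100a9, Cxcr2, Trem1, Retnlg and Mmp8 were at 0 in water replicate 1. Clec4d, Retnlg and Mmp8 were at 0 in water replicate 2, and Trem1 was at 0 in DSS plus montmorillonite replicate 1. Monocyte and macrophage markers (8 of 10), fibroblast markers (7 of 10), endothelial markers (7 of 8), B and plasma cell markers (7 of 8) and red blood cell markers (3 of 5) also rose in DSS, and 9 of 10 epithelial markers fell. Summed epithelial markers stood at 156417 and 163241 on water, 65970 and 45100.3 on DSS, and in the montmorillonite group 165477 and 90685. The part of these cell types in the change of Pfkfb3 and Slc16a3 was not tested. In bulk tissue, fewer cells of a type and less RNA per cell cannot be told apart.

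**Figure D2:**
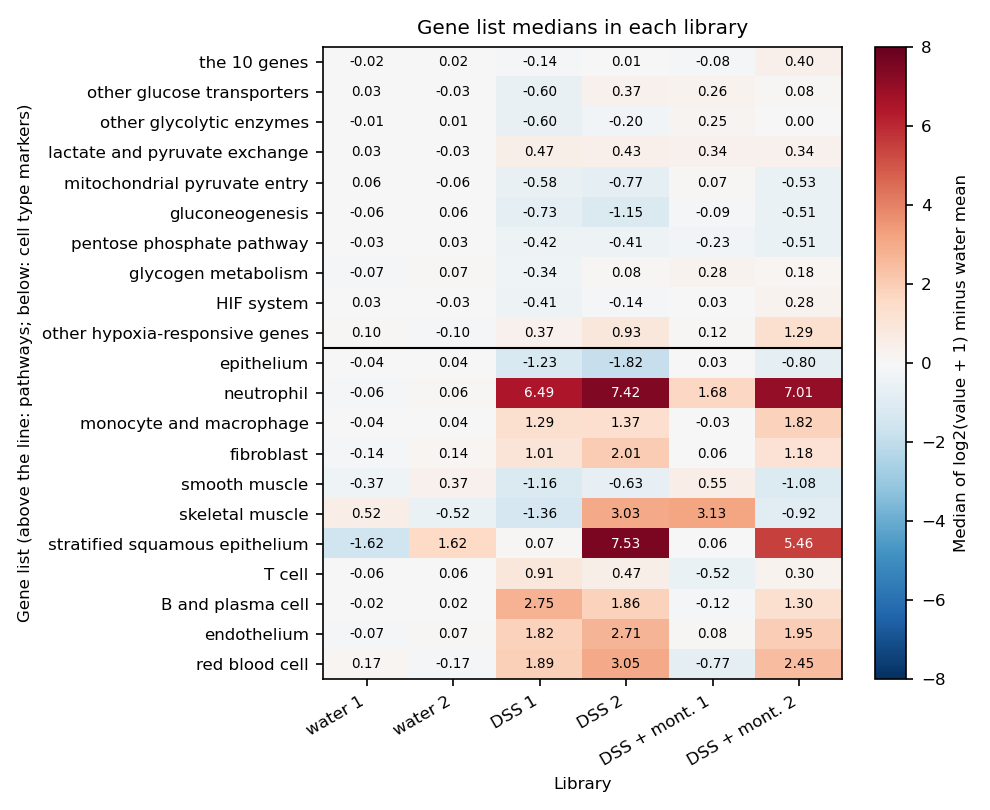
Median over each gene list of log2(normalised read count + 1) minus the mean of the water libraries, per library (columns) and list (rows, pathways above the line and cell type markers below); colour and printed number give the median in log2 units. The median of the 10 genes stays between -0.14 and 0.40. That of the neutrophil markers reaches 6.49 and 7.42 in DSS and stands at 1.68 and 7.01 in the montmorillonite group.

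At the entry to the pathway the changes were small and uneven. Slc2a1 (ENSMUSG00000028645.11, chromosome 4, 119108711 to 119137983) had normalised read counts of 1483 and 1485 on water, 1338 and 2178 on DSS, and in the montmorillonite group 1605 and 3145. The DSS libraries lay on both sides of water, and the log2 fold change was 0.20 ± 0.25 (SE; limma, adjusted p = 0.623). Without DSS replicate 2 it turned to -0.15. Hk2 (ENSMUSG00000000628.10, chromosome 6, 82725025 to 82774454) stood at 1946 and 1651 on water, 2230.5 and 2325 on DSS, and in the montmorillonite group 1402 and 4748. Both DSS libraries were above both water libraries, but by 1.27-fold with an interval of 0.959 to 1.68 (limma, adjusted p = 0.211). Without DSS replicate 2 its log2 fold change was 0.32. The last group held both the lowest and the highest Hk2 value of the 6 libraries.

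Among the other glucose carriers were 3 that passed in DSS. Of the 9 tested, 2 rose, 1 fell and 6 did not pass. Slc2a6, an intracellular hexose carrier of myeloid cells, had 21.1 and 18.2 in water against 98.8 and 79.6 in DSS, a 4.35-fold rise (limma, adjusted p = 0.0202). Slc2a3 (GLUT3), the high-affinity carrier of neurons and leukocytes, had 21.1 and 54.6 in water against 118 and 239 in DSS, a 4.82-fold rise near the threshold (limma, adjusted p = 0.0483) that missed it with a pseudocount of 0.5 (adjusted p = 0.0545) and with no filter (0.0511). Slc5a1 (SGLT1), the sodium-coupled glucose carrier of absorptive epithelium, fell from 1515 and 1462 to 552 and 247, or to 0.249 of water (limma, adjusted p = 0.0231). For the hexokinases, Hk1 had 1774 and 1974 in water against 1056 and 1594 in DSS (limma, adjusted p = 0.181), and Hk3, the myeloid form, had 45.1 and 29.6 against 82.4 and 125 (adjusted p = 0.0619). The ratio of Hk2 to Hk1 normalised read counts was 1.10 and 0.836 on water, 2.11 and 1.46 on DSS, and in the montmorillonite group 0.612 and 1.81. The DSS and water ratios did not overlap.

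At the phosphofructokinase step, no catalytic subunit passed in DSS. Pfkp (ENSMUSG00000021196.14, chromosome 13, 6579768 to 6648777) had normalised read counts of 1984 and 2304 on water, 2027 and 1675 on DSS, and in the montmorillonite group 2562 and 2749. DSS overlapped water, with a log2 fold change of -0.21 ± 0.18 (SE; limma, adjusted p = 0.460) that was 0.023 with scaling to library size. Exons of Pfkp overlap those of Pitrm1 on the other strand by 748 bases, and the level of Pitrm1 was 8.20% to 16.0% of that of Pfkp; whether counting used strand is not given in the sources used here. Liver-type Pfkl had 1311 and 1317 in water against 872 and 1117 in DSS, and muscle-type Pfkm had 107 and 134 against 105 and 206. Neither passed (limma, adjusted p = 0.186 and 0.623). Pfkfb4, another kinase of the Pfkfb family, had 264 and 271 on water, 205 and 236 on DSS, and in the montmorillonite group 529 and 222 (DSS against water: limma, adjusted p = 0.392).

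The 5 abundant enzymes from aldolase to lactate dehydrogenase did not pass in DSS. In normalised read count, 4 of them had both DSS libraries below both water libraries, as did 28.5% of all genes tested. With scaling to library size, Aldoa and Pkm overlapped water. Aldoa (ENSMUSG00000030695.15, chromosome 7, 126795234 to 126800751) stood at 10414 and 11503 on water, 6899 and 9094 on DSS, and in the montmorillonite group 13622 and 11254. Its DSS level was 0.724 of water with an interval of 0.508 to 1.03 (limma, adjusted p = 0.185). Pgk1 (ENSMUSG00000062070.12, chromosome X, 106187100 to 106203699) had 4858 and 4728 on water, 3918 and 3746 on DSS, and in the montmorillonite group 3649 and 5149. That is 0.799 of water in DSS, with an interval of 0.613 to 1.04 (limma, adjusted p = 0.213). The 2 Pgk1 values of the group given montmorillonite were the lowest and the highest of the 6.

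In normalised read count, Eno1 (ENSMUSG00000063524.13, chromosome 4, 150236721 to 150248879) was the steadiest of the 10 between water and DSS. It had 5646 and 6961 in water against 5707 and 6655 in DSS. With scaling to library size, Pfkp (0.023), Pkm (-0.026) and Pgk1 (-0.085) had smaller log2 fold changes than Eno1 (0.21). In the DSS plus montmorillonite libraries Eno1 had 6432 and 8434. Its log2 fold change in DSS was -0.02 ± 0.19 (SE; limma, adjusted p = 0.943), an interval of 0.708 to 1.37 in fold, and it changed sign with scaling to library size (0.21) and with edgeR (0.015). Pkm (ENSMUSG00000032294.17, chromosome 9, 59656368 to 59679375) had 12857 and 13470.2 on water, 9599 and 12519 on DSS, and in the montmorillonite group 12489 and 13365. DSS stood at 0.833 of water (interval 0.586 to 1.18; limma, adjusted p = 0.428). Gene-level counts do not separate the M1 and M2 splice forms of Pkm. A same-strand gene model, Gm49759, shares 767 bases with Pkm exons. Gm49759 and the processed pseudogene Gm6560 together had 4.93% to 8.85% of the level of Pkm. Most of that was Gm49759, at 480 to 1014 against 110 to 184 for Gm6560. Reads may be split between Pkm and both of them.

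Ldha (ENSMUSG00000063229.15, chromosome 7, 46841475 to 46855627) had the smallest p of the 8 genes that did not pass. Its normalised read counts were 12403 and 12076 on water, 8195 and 9555 on DSS, and in the montmorillonite group 10595 and 11356. Both treated groups lay below water without overlap. In DSS the level was 0.723 of water with an interval of 0.531 to 0.985, an unadjusted p of 0.0427 and an adjusted p of 0.140 by limma. Counted over the 10 genes in normalised read count, 3 had DSS above water without overlap (Hk2, Pfkfb3, Slc16a3), 4 had DSS below (Aldoa, Pgk1, Pkm, Ldha) and 3 overlapped. With scaling to library size, Aldoa and Pkm overlapped water, and Slc2a1 lay above water in both DSS libraries. Over all genes tested, 62.4% did not overlap between DSS and water, 33.9% with DSS higher and 28.5% with DSS lower.

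**Figure D3:**
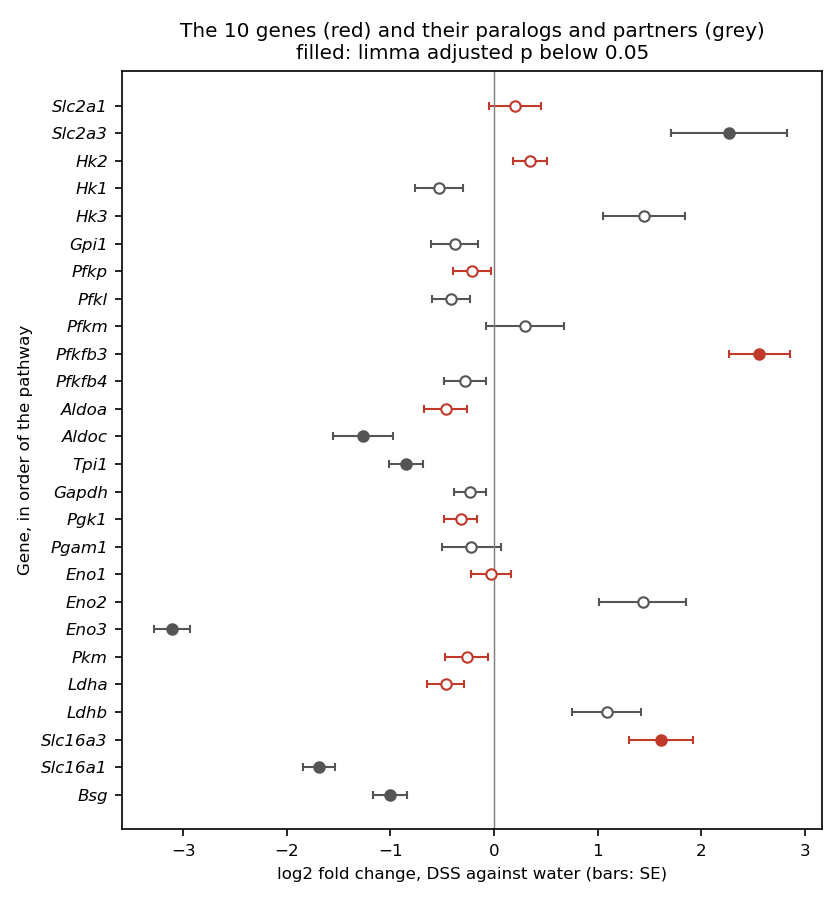
log2 fold change in DSS against water (horizontal axis, log2 units, bars are SE from limma) for the 10 genes in red and their paralogs and partners in grey, in pathway order; filled points have an adjusted p below 0.05. Among the red points, those of Pfkfb3 (2.56) and Slc16a3 (1.61) are filled.

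Enzymes of the pathway outside the 10 genes that passed limma in DSS were lower, though not under every setting. Of 18 other glycolytic enzymes, 0 rose, 3 fell and 15 did not pass, with a median log2 fold change of -0.37. Eno3, the beta enolase best known from muscle, fell from 3243 and 2743 in water to 361 and 330.3 in DSS, or to 0.116 of water (limma, adjusted p = 0.0023). In DSS plus montmorillonite it had 3479 in replicate 1 and 193 in replicate 2. Skeletal muscle markers summed to 677 and 330 on water, 121 and 3280 on DSS, and in the montmorillonite group 4099 and 189. Like Eno3 they were higher in replicate 1 than in replicate 2 of that group, and in DSS replicate 2 they were high where Eno3 was low; their part in the Eno3 values was not tested. Triose phosphate isomerase Tpi1 fell from 5908 and 6204 to 3599 and 3128 (0.554 of water; limma, adjusted p = 0.0265), and aldolase C (Aldoc) from 237 and 309 to 91.8 and 137 (0.416 of water; adjusted p = 0.0396). Scaling to library size left Tpi1 and Aldoc short of the threshold, at adjusted p of 0.0647 and 0.0651, and called Hk3 and Eno2 higher. DESeq2 called 2 of the 18 higher, again Hk3 and Eno2, and 4 lower. With a mean of at least 10, limma called Hk3 higher and 4 lower. As for the 10 genes, every call on the other pathway genes was lost in the fit of all 6 libraries and without either DSS library, fits in which limma called 0 genes at all. Without DSS replicate 2, all 23 called genes of the other pathway lists kept their direction and 0 of them moved by over 1.5 times in fold. A gene is called mostly where its DSS libraries lie close together for the size of its change. That outcome was therefore largely fixed by the choice of called genes and cannot show what replicate 2 contributed. Without replicate 2, Eno3 was at 0.121 of water, Tpi1 at 0.595, Slc16a1 at 0.319 and Slc7a11 at 8.22-fold. Others moved further, such as Slc5a1 from 0.249 to 0.372 of water, Slc5a8 from 0.195 to 0.287 and Slc2a3 from 4.82-fold to 3.39-fold.

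Several other enzymes did not pass limma on the normalised read counts. Eno2, the gamma enolase best known from neurons, had 37.4 and 72.8 in water against 117 and 175 in DSS (limma, adjusted p = 0.0743). Gpi1, the isomerase after hexokinase, had 3898 and 3932 against 2471 and 3658 (limma, adjusted p = 0.298). Gapdh had 1924 and 1826 against 1531 and 1664, and Pgam1 had 1051 and 901 against 636 and 1099 (limma, adjusted p = 0.354 and 0.636); both log2 fold changes were negative here and positive with scaling to library size. Gapdh is known for many processed copies in the mouse genome, so its counts are uncertain.

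**Figure D4:**
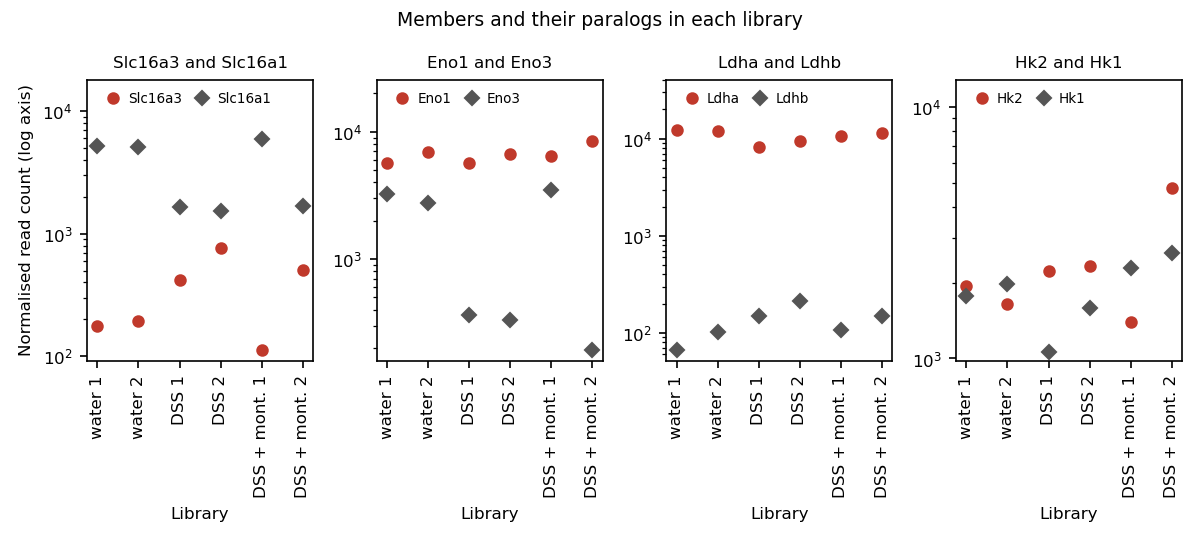
Normalised read counts (vertical axes, logarithmic) of 4 members in red circles and a paralog of each in grey diamonds, for each of the 6 libraries. Slc16a1 and Eno3 are low in both DSS libraries and in replicate 2 of DSS plus montmorillonite, and Slc16a3 is high in the same 3 libraries.

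Around lactate, the transporters Slc16a3 and Slc16a1 moved in opposite directions in DSS. Of 7 genes of lactate and pyruvate exchange, 1 rose, 3 fell and 3 did not pass limma in DSS. DESeq2 called 3 higher and 3 lower, and scaling to library size gave 2 higher and 3 lower. Slc16a1 (MCT1), which carries lactate and butyrate across the colonocyte membrane, fell from 5156 and 5106 in water to 1637 and 1543 in DSS, or to 0.310 of water (limma, adjusted p = 0.0058). The DSS plus montmorillonite libraries had 5870 and 1679. The ratio of Slc16a3 to Slc16a1 was 0.0343 and 0.0383 in water against 0.258 and 0.499 in DSS. In DSS plus montmorillonite that ratio was 0.0191 in replicate 1, below water, and 0.302 in replicate 2, within the DSS range.

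Basigin (Bsg), the chaperone that takes both transporters to the cell surface, fell from 6770 and 6566 in water to 3478 and 3182 in DSS (0.499 of water; limma, adjusted p = 0.0166). Embigin (Emb), a related chaperone, rose from 86.4 and 68.2 to 263 and 337 (3.84-fold; adjusted p = 0.0116). Slc5a8, a sodium-coupled carrier of lactate and short-chain fatty acids that was named after its values were seen, also fell, to 0.195 of water (limma, adjusted p = 0.0148). Ldhb, the subunit that favours lactate oxidation, had 67.2 and 102 in water against 148 and 213 in DSS (limma, adjusted p = 0.0819). It passed as higher with scaling to library size (limma, adjusted p = 0.0493) and by DESeq2 (adjusted p = 0.0319). The ratio of Ldha to Ldhb was 185 and 118 on water, 55.3 and 44.9 on DSS, and in the montmorillonite group 98.2 and 76.2, with both treated groups below water. Epithelial markers fell in the same DSS libraries as Slc16a1, Bsg and Slc5a8, and their part in these changes was not tested.

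The routes that use or make pyruvate and glucose by other means mostly fell or did not pass. Of 13 genes of mitochondrial pyruvate entry 5 fell and 0 rose, with a median log2 fold change of -0.59. Pyruvate carboxylase (Pcx) fell to 0.353 of water (limma, adjusted p = 0.00915) and the pyruvate dehydrogenase kinase Pdk2 to 0.355 (adjusted p = 0.0129). Another kinase, Pdk1, a known HIF-1 target that restrains pyruvate dehydrogenase and was named after its values were seen, fell to 0.493 (limma, adjusted p = 0.0194). The ratio of Pkm to Pcx was 10.6 and 9.66 on water, 19.3 and 29.8 on DSS, and in the montmorillonite group 8.35 and 9.55. Of 6 gluconeogenic genes 2 fell and 0 rose. Pck1 fell from 278 and 279.7 to 42.9 and 20.6 (0.11 of water; limma, adjusted p = 0.00968), with 1280.1 and 98.1 in DSS plus montmorillonite, and Fbp2 fell to 0.423 of water (adjusted p = 0.0328; 0.0593 with scaling to library size).

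In the pentose phosphate pathway 0 of 8 genes passed limma in either direction, with 3 at an unadjusted p below 0.05 and 0 called by edgeR or DESeq2, and 7 of the 8 lay below water without overlap, where 28.5% of all genes tested did. In glycogen metabolism 1 of 9 rose and 0 fell. That gene was glycogen phosphorylase L (Pygl), which had 36.5 and 47.8 on water, 165 and 319 on DSS, and in the montmorillonite group 44.6 and 249 (5.4-fold in DSS; limma, adjusted p = 0.0169).

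No gene of the HIF system passed the limma test described above in DSS, though some passed under other settings. Other hypoxia-responsive genes were called in both directions. Of 8 genes of the oxygen-sensing system, limma called 0, with 4 at an unadjusted p below 0.05, 0 called by edgeR and 3 by DESeq2 (2 higher and 1 lower). Hif1a, the oxygen-regulated subunit, had 2823 and 2734 on water, 3929 and 4292 on DSS, and in the montmorillonite group 3842 and 5393. The DSS libraries were 1.48-fold above water without overlap (interval 1.13 to 1.93; limma, adjusted p = 0.0655), and the gene passed with scaling to library size (adjusted p = 0.0262). Egln3, the prolyl hydroxylase that marks HIF subunits for destruction and is itself a HIF target, had 1710 and 1619 in water against 1147 and 1091 in DSS (limma, adjusted p = 0.0594). It passed as lower with a mean of at least 10 (limma, adjusted p = 0.0471) and by DESeq2 (adjusted p = 0.0458).

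Among 16 other hypoxia-responsive genes 4 rose, 1 fell and 11 did not pass, and their median log2 fold change was 0.63. With scaling to library size 8 rose and 1 fell, and DESeq2 called 6 higher and 1 lower. The largest rise was that of Slc7a11, the cystine carrier, from 42.2 and 36.4 to 329 and 487 (9.99-fold; limma, adjusted p = 0.00557), with 12.9 and 422 in DSS plus montmorillonite. Mitochondrial adenylate kinase Ak4 rose from 64.3 and 63.7 to 288 and 237 (4.04-fold; adjusted p = 0.00951 by limma). The collagen-modifying enzymes P4ha2 and Plod2 also rose, 3.73-fold and 3.56-fold, and Mxi1, a MYC antagonist, fell to 0.467 of water (limma, adjusted p = 0.0202, 0.0116 and 0.0148); these 3 genes were named after their values were seen. Fibroblast markers rose in the same libraries, and their part in the rise of the collagen enzymes was not tested. Vegfa and Car9, widely used hypoxia markers also named after their values were seen, had log2 fold changes of -0.08 and -0.31 (limma, adjusted p = 0.827 and 0.257), that of Vegfa turning positive with scaling to library size.

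With montmorillonite beside DSS, none of the 10 genes passed the test against water or against DSS. Against water limma called 0 genes of 20307 (a percentage of 0), with 1576 at an unadjusted p below 0.05, 0 called by edgeR and 200 by DESeq2, none of them among the 10. Against DSS it called 0 genes, with 1444 at an unadjusted p below 0.05, 0 by edgeR and 76 by DESeq2, again none among the 10. The spread within the group was wide. Replicate 2 was 10.8 times replicate 1 for Pfkfb3, 4.52 times for Slc16a3, 3.39 times for Hk2 and 1.96 times for Slc2a1, and 0.826 to 1.41 times for the other 6. For comparison, the ratio of replicate 2 to replicate 1 in DSS was 1.76 for Pfkfb3 and 1.82 for Slc16a3.

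That spread left wide intervals. Against DSS, Pfkfb3 stood at 0.527-fold with a 95% confidence interval of 0.0673 to 4.13 and Slc16a3 at 0.420-fold with 0.103 to 1.71 (limma, adjusted p = 0.827 and 0.725). Without replicate 1 of the montmorillonite group the log2 fold changes against DSS were 0.79 for Pfkfb3 and -0.17 for Slc16a3, and without replicate 2 they were -2.64 and -2.33. In none of the 4 fits against DSS that left out a library did a gene of the 10 pass, with the smallest adjusted p at 0.0548, although without replicate 2 limma called 285 genes. Against water the 95% confidence intervals in fold were 0.375 to 25.8 for Pfkfb3 and 0.324 to 5.08 for Slc16a3.

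Some of the 10 genes did not overlap between the montmorillonite group and its comparison. Slc2a1 and Pfkp lay above water in both libraries and Ldha below, 3 of 10 genes, where 40.8% of all genes tested did not overlap (21.5% higher, 19.2% lower). Pfkp, Aldoa and Ldha lay above DSS in both libraries, again 3 of 10, where 39.9% of all genes tested did not overlap (19.4% higher). The log2 fold changes against DSS were 0.53 ± 0.25 for Pfkp, 0.64 ± 0.31 for Aldoa and 0.31 ± 0.28 for Ldha (SE; limma, adjusted p = 0.702, 0.702 and 0.775). Both comparisons and that of DSS with water share libraries, so their values are not independent.

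**Figure D5:**
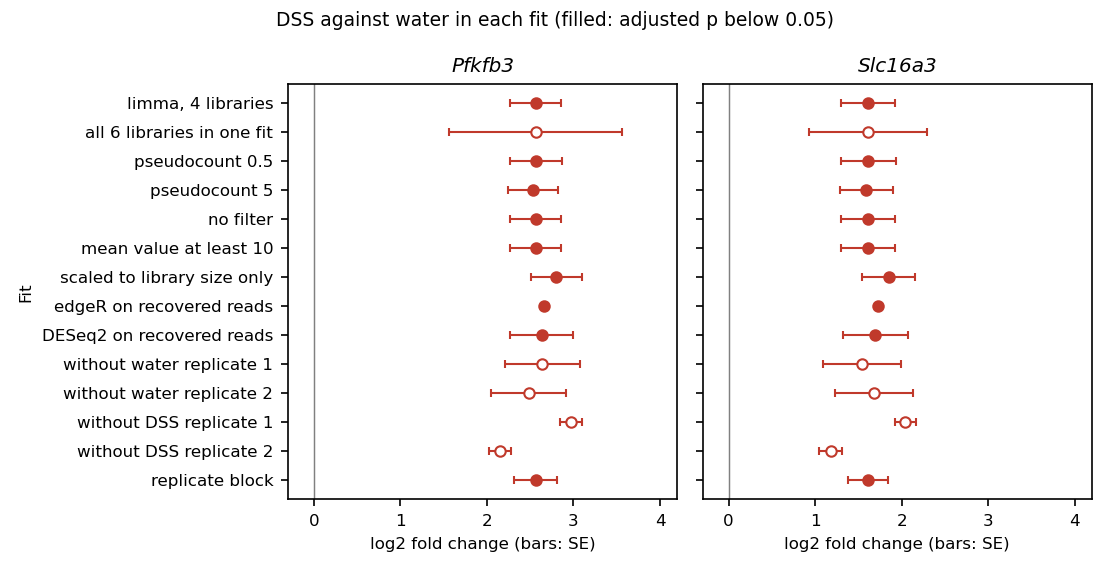
log2 fold change of Pfkfb3 (left) and Slc16a3 (right) in DSS against water (horizontal axes, log2 units, bars are SE; edgeR gives none) under each way of fitting, with filled points at an adjusted p below 0.05. All points lie above 0, between 2.15 and 2.97 for Pfkfb3 and between 1.18 and 2.04 for Slc16a3, and those of the fit of 6 libraries and of the 4 fits without a library are open.

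Over the 6 libraries, the median pattern of the 10 genes was nearly flat. Summed over the 10 genes, the normalised read count was 51937 and 54527 on water, 41055 and 49784 on DSS, and in the montmorillonite group 52620.4 and 62360. Both DSS libraries were below both water libraries on this scale. With scaling to library size that order was lost, and DSS replicate 2 lay above both water libraries. The distance of a gene from the median pattern was taken as the root mean square difference, over the 6 libraries, of log2(normalised read count + 1) less its mean. Eno1 was the nearest member at 0.0393 log2 units, and Hk2 (0.443), Slc16a3 (0.910) and Pfkfb3 (1.39) were the farthest. Among the other genes with a mean of at least 50, the 6 nearest were Snx17 (0.0435), Crebbp (0.0579), Axin1 (0.0588), Elovl1 (0.0604), Pqlc2 (0.0643) and Zdhhc12 (0.0668). Snx17, a sorting nexin, had 652 and 714 on water, 624 and 673 on DSS, and in the montmorillonite group 644 and 899.

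Copies could split reads of some members. In GENCODE transcripts, near-identical copies (at least 95% identity over at least 200 bases) were found for Eno1, Pgk1, Ldha and Pkm. The 3 copies of Eno1 had 1.55% to 2.09% of its level and the deposited copy of Pgk1 at most 0.118%. The 4 copies of Ldha were not analysed here. No such copy was found for Slc2a1, Hk2, Pfkfb3, Aldoa or Slc16a3.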

How the data were processed

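RNA of 6 colon libraries (3 groups of 2) was measured by RNA-seq. The authors deposited a table of normalised signal with 20533 genes; reads were mapped to GRCm38 (mm10) per the submitters' processing notes, and the aligner, counting and normalisation are not given in the sources used here. Of the deposited signal values, 100% in every library were whole multiples of 1 read (tolerance 0.01 read), so read counts could be recovered. Groups came from sample titles.

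Symbols came from GENCODE M21 (20500 identifiers matched without version, 18022 with it, 33 not at all). The test was limma 3.58.1, with its trend option, in R 4.3.3, run on log2(value + 1) for the 20307 genes with a mean of at least 1, two-sided, on the 4 libraries of each comparison. Each of these fits had 2 residual degrees of freedom. The fit of all 6 libraries had 3, and fits with a replicate block or with a library left out had 1. The test was also run on simulated data, whose values are not reported here. On the recovered reads edgeR 4.0.16 called 2993 genes and DESeq2 1.42.0 called 4045 in DSS against water, against 3064 by limma. Copies were sought with blastn 2.17.0.

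The members, lists and tests, including the choice of 4 libraries per fit, were chosen with earlier results of these data known. Named genes were the 10 members; paralogs, partners and regulators of the pathway; from each list the 2 of lowest p that passed in DSS against water; and the 6 genes nearest to the median pattern with a mean of at least 50. Other names are marked in the text, and 1 gene that the rule takes is not reported here. List genes not among the 20533 (such as Slc2a2) were not analysed here. Depth limits the water libraries most, where Pfkfb3 had 177 and 67 reads. Other fits, pseudocounts, filters and scalings were tried.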

Additional observations from a re-analysis of the deposited data

How the results depend on the processing

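In DSS against water the count of the 10 genes called was 2 under pseudocounts of 0.5 and 5, no filter, a mean of at least 10, scaling to library size, edgeR and DESeq2, and 0 in the fit of all 6 libraries, which called 0 genes (smallest adjusted p 0.0576). With 1 library left out, 0 of the 10 passed and 0 to 317 genes were called (288 without water replicate 1, 317 without water replicate 2, 0 without either DSS library, at smallest adjusted p of 0.0557 and 0.0761). A lone library is assumed to vary like the other group, and a fit that called 0 genes says nothing about single calls. Of the other pathway genes that passed, Eno3 and Slc7a11 still passed without either water library and none without a DSS library. DESeq2 called 200 genes in DSS plus montmorillonite against water and 76 against DSS, and the latter comparison called 0 to 285 genes with a library left out, 285 of them without DSS plus montmorillonite replicate 2. The cause of these differences was not tested, apart from fewer libraries in the fits that leave some out.

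Labels number the libraries 1 and 2 in each group but do not say that a number marks a shared litter or day. With the replicate block, 5084 genes and 2 of the 10 were called in DSS against water (adjusted p 2.42e-05 for Pfkfb3 and 0.00037 for Slc16a3), and 0 of the 10 in the other comparisons. The block also called 2 higher and 4 lower of 18 other glycolytic enzymes, 0 and 8 of 13 pyruvate entry genes, 2 and 2 of 8 HIF system genes (Hif1a and Epas1 higher, Egln3 and Hif1an lower) and 7 and 1 of 16 hypoxia-responsive genes. Deviations of same-numbered libraries from their group means correlated at 0.197 (water and DSS), 0.160 (water and DSS plus montmorillonite) and 0.409 (DSS and DSS plus montmorillonite) over 13914 genes.

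Direction changed for these log2 fold changes, none of which passed. In DSS against water it changed for Pfkp (0.023) and Eno1 (0.21) with scaling to library size, for Eno1 with edgeR (0.015), and with a library left out for Eno1 (range -0.18 to 0.13, and 0.09 without DSS replicate 1) and Slc2a1 (-0.15 to 0.55). In DSS plus montmorillonite against water it changed with a library left out for Pkm (-0.076 to 0.022, and 0.0070 without water replicate 2), Pgk1 (-0.39 to 0.10), Hk2 (-0.35 to 1.40), Pfkfb3 (-0.077 to 3.35) and Slc16a3 (-0.72 to 1.44). In DSS plus montmorillonite against DSS it changed with scaling to library size for Hk2 (-0.078), Pgk1 (-0.080), Eno1 (-0.0016) and Pkm (-0.022), and with a library left out for Pfkfb3 (-2.64 to 0.79), Slc2a1 (-0.089 to 0.88), Hk2 (-0.70 to 1.06) and Pgk1 (-0.070 to 0.43).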
